A study of Mus musculus with 6 samples.

Results

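The collagen genes of the mouse were followed here in the renal cortex after ischemia and reperfusion. Members were the genes whose symbol reads Col, a number, the letter a and a number, which is the name of 1 collagen chain, and 44 of the 22040 genes listed were of this form. They fall into 11 fibrillar chains, 6 chains of type IV, the collagen of basement membranes, and 27 chains of other classes. IR24h is the cortex of C57BL/6 wild-type mice taken 24 h after reperfusion, which followed 30 min in which both renal pedicles, with the vessels of each kidney, had been clamped (3 libraries). Sham is the same tissue of the same inbred strain from mice labelled as sham (3 libraries). The labels repeat the clamp protocol for the sham libraries and do not describe what the sham operation was. The sources used here give neither age nor sex and do not say that the libraries of a group are from different mice, so the p-values speak only for the spread between these libraries, which may be technical. The series concerns RNA oxidation in acute kidney injury, and the comparison of IR24h with sham shows here how the collagen genes differ after the injury.

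Collagens are proteins of 3 polypeptide chains wound into a triple helix. Fibrillar collagens are made mainly by fibroblasts and pericytes and assemble into the fibrils that give tissue its tensile strength. Type IV chains form the sheet-like network of basement membranes. In the kidney the α1 and α2 chains of type IV lie under most epithelia and vessels, while the α3, α4 and α5 chains make the mature basement membrane of the glomerulus and are secreted there by podocytes. The other classes link fibrils to their surroundings, form beaded filaments around cells, or span the cell membrane. Chains are modified and folded in the endoplasmic reticulum, trimmed of their propeptides outside the cell and crosslinked by lysyl oxidases.

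The libraries held 12877237 to 15998975 counts in IR24h and 14339985 to 17061844 in sham. Genes of the mitochondrial genome took 26.2 to 68.9% of the counts in IR24h and 13.1 to 14.2% in sham. Collagen genes took 0.405, 0.291 and 0.216% of the counts in IR24h 1, 2 and 3, against 0.168, 0.157 and 0.144% in sham 1, 2 and 3. IR24h 2 stood apart from the other libraries of its group. Its log2 CPM correlated across genes at r = 0.823 and 0.836 with IR24h 1 and 3, which correlated with each other at 0.916, and at 0.848 to 0.859 with the sham libraries. Levels are given as CPM, counts brought to a common library size with TMM factors. The gene lengths behind the authors' FPKM values also differ between the groups, for 13.1% of the genes that could be compared (4 of 30 collagens, 13.3%). The IR24h and sham counts may thus have been made in different ways. Such a difference and the injury cannot be told apart. Markers of the proximal tubule, the main cell type of the cortex, summed to 9393 to 17104 CPM in IR24h and 25079 to 29871 CPM in sham. Most of each IR24h sum was 1 marker, Kap, whose groups overlapped. Kap had 10826, 5080 and 13814 CPM in IR24h 1, 2 and 3, against 8809, 9883 and 13142 CPM in sham 1, 2 and 3. The median log2 fold change of the 10 markers was −2.61. The adrenal genes Cyp11a1, Cyp11b1 and Cyp21a1 were at 0 counts in every library.

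Of the 44 collagens, 29 passed the expression filter. In the injured cortex 12 were higher, 1 was lower and 16 were not called (edgeR quasi-likelihood test, Benjamini-Hochberg adjusted p under 0.05 over all 13609 genes tested). Among all genes tested, 8.65% were higher and 7.62% were lower. The higher collagens were 5 fibrillar chains, 1 chain of type IV and 6 of the other classes, each at least 2-fold higher, and the lower one was Col6a6. Leaving out a library changed the calls. Without IR24h 1, 2 and 3, 10, 13 and 9 of the 13 stayed called, against 5, 4 and 5 without sham 1, 2 and 3. Over all genes, 1177 were higher and 1037 lower with every library. Without sham 1, 2 and 3 these were 283, 246 and 292 higher and 237, 212 and 196 lower. Without IR24h 1, 2 and 3 they were 842, 3297 and 813 higher and 709, 3382 and 749 lower. Calls without a sham library were thus lost over all genes, and not only among collagens. Scaling by library size alone left 9 of the 13 called, where 2.92% of all genes were higher and 4.49% lower. The log2 fold change was positive for 24 of the 29 and its median was 2.06, against 0.05 over all genes. The 3 IR24h libraries lay above the 3 sham libraries for 17 collagens and below them for 2. Among all genes the groups did not overlap for 41.5%, with 19.9% above and 21.7% below. An exact permutation test, 2-sided, of a single gene over the 20 assignments of the libraries cannot go below p = 0.1, and it gave 0.1 for each of the genes whose groups did not overlap. In bulk tissue, fewer cells of a type and less RNA per cell cannot be told apart.

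**Figure D1:**
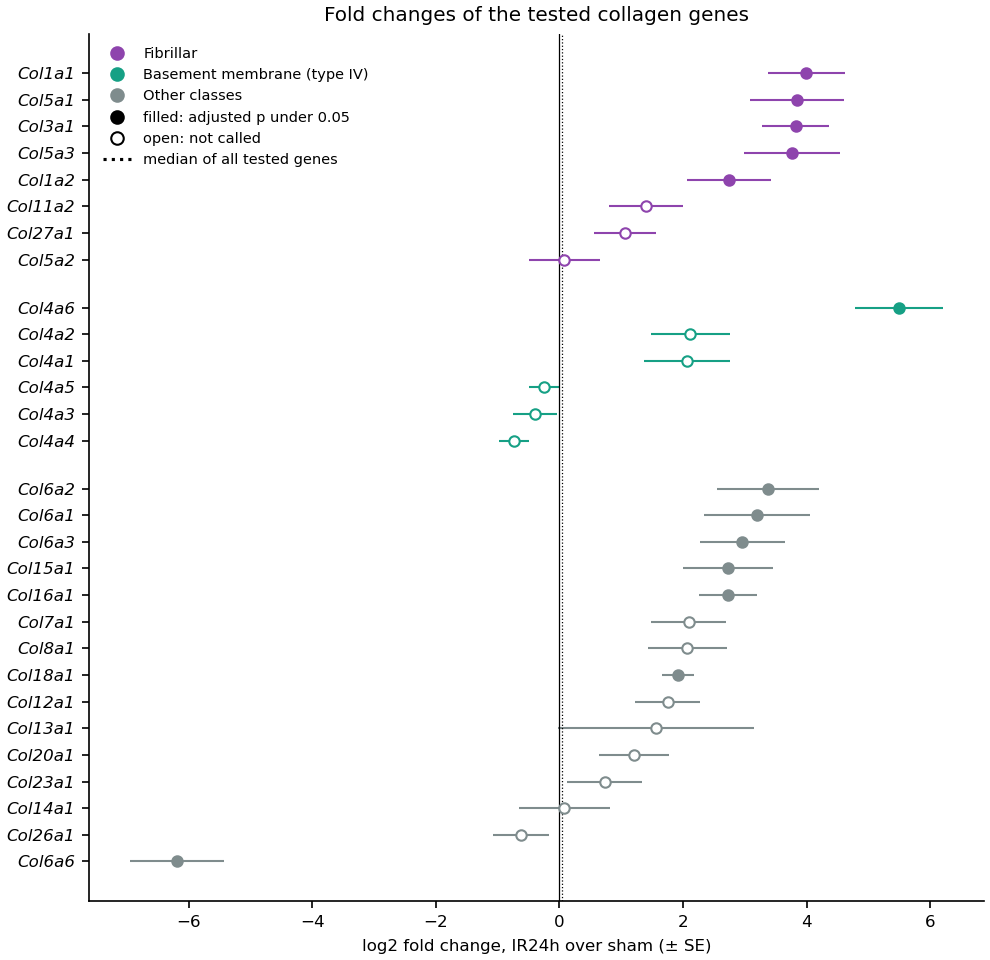
Log2 fold change of IR24h over sham with its SE for the 29 tested collagen genes (3 libraries a group), sorted within fibrillar, type IV and other classes; filled points passed an adjusted p of 0.05 and the dotted line is the median of all genes tested, 0.05. The 8 fibrillar chains all lie right of 0, type IV divides into 3 chains right and 3 left of it, and Col6a6 stands alone on the far left at −6.18.

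Among the fibrillar chains, the major fibril collagens of types I and III and 2 chains of type V were higher. Of the 11 fibrillar members, 8 were tested, 5 were higher and 3 were not called, with a median log2 fold change of 3.26 over the tested ones. Col1a1 (ENSMUSG00000001506; chromosome 11, 94936224 to 94953042, plus strand) encodes the α1 chain of type I, the most abundant collagen of the body. It had 456, 80.9 and 238 CPM in IR24h 1, 2 and 3, against 19.1, 15.9 and 13.6 CPM in sham 1, 2 and 3. Every IR24h library was above every sham library, but the IR24h libraries differed among themselves, with IR24h 1 the highest and IR24h 2 the lowest. This gave a log2 fold change of 3.995 ± 0.63 (SE; adjusted p = 0.00786). Col1a2 (ENSMUSG00000029661; chromosome 6, 4504814 to 4541544, plus strand) encodes the α2 chain, which joins pairs of α1 chains in the type I trimer. It had 488, 63.1 and 165 CPM in IR24h 1, 2 and 3, against 36.8, 36.4 and 33.2 CPM in sham 1, 2 and 3, and its log2 fold change was 2.75 ± 0.68 (adjusted p = 0.0347). The groups did not overlap, and IR24h 2 was the library nearest to sham. Col3a1 (ENSMUSG00000026043; chromosome 1, 45311538 to 45349706, plus strand), the chain of type III, which forms fibrils together with type I, had 591, 138 and 283 CPM in IR24h 1, 2 and 3, against 26.3, 22.5 and 22.5 CPM in sham 1, 2 and 3. Its libraries fell in the same order as those of Col1a1, and its log2 fold change was 3.82 ± 0.55 (adjusted p = 0.00592). The call of Col3a1 held without each library in turn (highest adjusted p = 0.0445), that of Col1a1 did not hold without sham 2 or 3 (adjusted p = 0.0521 and 0.0542), and that of Col1a2 was lost without any 1 library but IR24h 2 (adjusted p = 0.0557 to 0.132).

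Type V collagen sits at the core of type I fibrils and starts their assembly. Col5a1 (ENSMUSG00000026837; chromosome 2, 27886425 to 28039514, plus strand) had 159.7, 21.1 and 45.4 CPM in IR24h 1, 2 and 3, against 6.11, 6.11 and 3.51 CPM in sham 1, 2 and 3, a log2 fold change of 3.84 ± 0.76 (adjusted p = 0.0170). The gene length behind its deposited values was 8783 bases in IR24h and 9461 bases in sham. Col5a3 (ENSMUSG00000004098; chromosome 9, 20770050 to 20815067, minus strand), a less widespread type V chain, had 84.9, 11.0 and 22.0 CPM in IR24h 1, 2 and 3, against 3.54, 2.12 and 2.97 CPM in sham 1, 2 and 3. Its log2 fold change was 3.77 ± 0.77 (adjusted p = 0.0187), and its groups did not overlap. Both calls were lost without any 1 sham library (adjusted p = 0.0723 to 0.0892). Col5a2 (ENSMUSG00000026042; chromosome 1, 45374321 to 45503282, minus strand), the usual partner of Col5a1 in the type V trimer, had 81.2, 17.3 and 25.3 CPM in IR24h 1, 2 and 3, against 53.6, 34.2 and 28.9 CPM in sham 1, 2 and 3. Here the groups overlapped: IR24h 1 was above every sham library and IR24h 2 and 3 were below every one. The log2 fold change was 0.08 ± 0.58 (adjusted p = 0.936), and its sign depended on the libraries and the scaling used. Col5a2 lies tail to tail with Col3a1 on chromosome 1, with 24614 bases between the genes.

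Col27a1 (ENSMUSG00000045672; chromosome 4, 63214004 to 63334991, plus strand), a fibrillar collagen of cartilage and other tissues, had 252, 280.4 and 67.6 CPM in IR24h 1, 2 and 3, against 92.8, 84.5 and 111 CPM in sham 1, 2 and 3. IR24h 1 and 2 were above the sham libraries and IR24h 3 was below them, for a log2 fold change of 1.06 ± 0.50 (adjusted p = 0.180). Without IR24h 3 it was called, as higher (adjusted p = 0.0232). It is the fibrillar chain in which IR24h 2 was the highest library. Col11a2, a chain of type XI collagen, stayed at 0.97 to 2.27 CPM in IR24h and 0.29 to 0.86 CPM in sham, without a call (log2 fold change 1.40 ± 0.60, adjusted p = 0.146), and the gene length behind its values differed between the groups. The remaining fibrillar members did not pass the filter: Col2a1, the main collagen of cartilage, had 0 counts in every library, and Col11a1 and Col24a1 had at most 6 and 14 counts in any library.

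**Figure D2:**
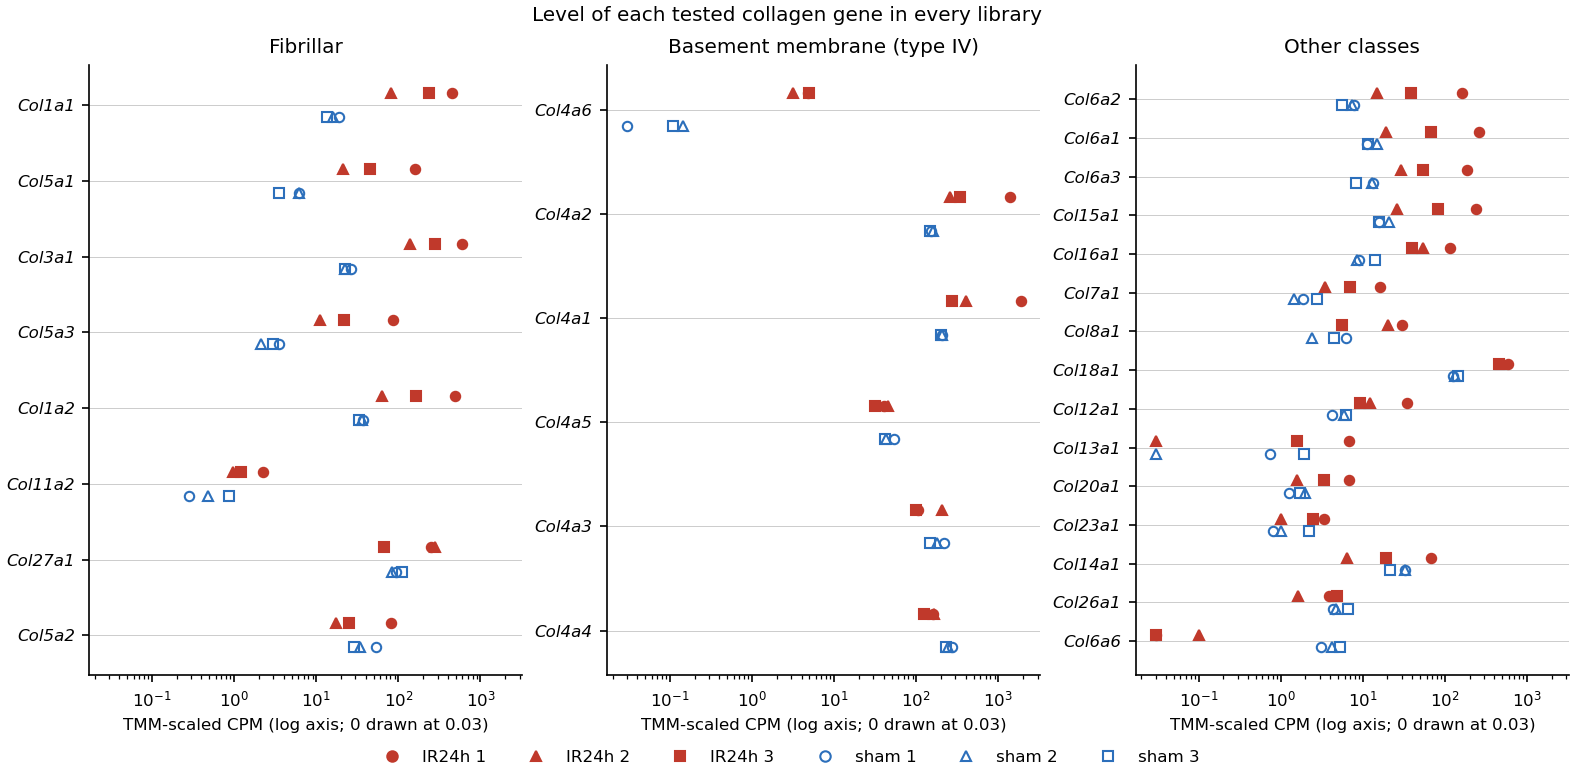
TMM-scaled CPM (log axis, 0 drawn at 0.03) of the 29 tested collagen genes in each of the 6 libraries, by class. Filled red symbols are IR24h libraries and open blue symbols are sham libraries. The same shape marks the same replicate number, and the labels do not say that this number pairs libraries. For most genes sham libraries lie close together while IR24h libraries spread, with IR24h 1 on the right for most genes, as for Col1a1 at 456 CPM against 80.9 CPM in IR24h 2.

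Mesenchymal cells are the usual makers of fibrillar collagen. Of 13 markers of fibroblasts, pericytes and smooth muscle, all tested, 8 were higher, 5 were not called and 0 were lower, where 8.65% of all genes were higher, with a median log2 fold change of 2.14. Their summed level was 303 to 898 CPM in IR24h and 167 to 188 CPM in sham, and no marker was at 0 in every library. IR24h 2, the lowest IR24h library for 10 of the 12 higher collagens, was also the lowest for this sum. The part of these cells in the collagen levels was not tested.

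In type IV the 6 chains did not move as one: Col4a6 was higher, Col4a1 and Col4a2 lay above sham in each IR24h library without a call, and Col4a4 lay below sham in each without a call. Of the 6, all were tested, 1 was higher (Col4a6) and 5 were not called, and the median log2 fold change was 0.91, with 3 values above 0 and 3 below. The 6 genes form 3 pairs that start next to each other and run in opposite directions: Col4a1 (ENSMUSG00000031502; chromosome 8, 11198423 to 11312826, minus strand) with Col4a2 (ENSMUSG00000031503; chromosome 8, 11312805 to 11449287, plus strand), Col4a4 (ENSMUSG00000067158; chromosome 1, 82448423 to 82586849, minus strand) with Col4a3 (ENSMUSG00000079465; chromosome 1, 82586921 to 82722059, plus strand), and Col4a6 (ENSMUSG00000031273; chromosome X, 141165403 to 141474076, minus strand) with Col4a5 (ENSMUSG00000031274; chromosome X, 141475385 to 141689234, plus strand). The first pair overlaps by 22 bases in GENCODE M21, 71 bases lie between the starts of the second and 1308 between those of the third. The start regions are shown because both genes of a pair start side by side. The windows cover 250 bases before and 50 after each RefSeq start (GRCm38.p6), written 5′ to 3′ on the strand of the gene. Capitals mark a CCAAT box (CCAAT, or ATTGG on the opposite strand) or a GC box (GGGCGG or CCGCCC).
Col4a1: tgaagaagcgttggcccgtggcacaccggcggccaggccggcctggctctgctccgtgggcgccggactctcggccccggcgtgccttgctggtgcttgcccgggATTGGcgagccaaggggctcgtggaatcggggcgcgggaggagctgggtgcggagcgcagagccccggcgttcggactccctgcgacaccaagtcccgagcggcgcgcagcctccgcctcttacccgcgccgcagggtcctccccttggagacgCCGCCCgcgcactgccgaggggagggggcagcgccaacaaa
Col4a2: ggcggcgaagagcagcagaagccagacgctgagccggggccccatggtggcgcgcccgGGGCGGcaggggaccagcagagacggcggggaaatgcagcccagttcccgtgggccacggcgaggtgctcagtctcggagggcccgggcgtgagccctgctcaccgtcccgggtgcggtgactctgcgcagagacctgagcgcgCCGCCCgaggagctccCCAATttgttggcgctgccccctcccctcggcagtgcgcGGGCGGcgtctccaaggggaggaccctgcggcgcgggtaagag
Col4a4: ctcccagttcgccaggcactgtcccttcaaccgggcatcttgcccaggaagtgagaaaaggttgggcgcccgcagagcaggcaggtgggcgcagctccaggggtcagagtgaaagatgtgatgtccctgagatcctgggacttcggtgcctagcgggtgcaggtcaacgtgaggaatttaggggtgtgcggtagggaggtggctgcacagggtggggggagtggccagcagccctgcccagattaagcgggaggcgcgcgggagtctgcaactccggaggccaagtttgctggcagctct
Col4a5: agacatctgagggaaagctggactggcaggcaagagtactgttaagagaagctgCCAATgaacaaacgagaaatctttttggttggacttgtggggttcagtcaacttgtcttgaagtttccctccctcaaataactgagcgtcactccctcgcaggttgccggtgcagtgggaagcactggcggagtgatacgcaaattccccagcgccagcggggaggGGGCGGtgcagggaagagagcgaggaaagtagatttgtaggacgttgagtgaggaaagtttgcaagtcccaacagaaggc
Col4a6: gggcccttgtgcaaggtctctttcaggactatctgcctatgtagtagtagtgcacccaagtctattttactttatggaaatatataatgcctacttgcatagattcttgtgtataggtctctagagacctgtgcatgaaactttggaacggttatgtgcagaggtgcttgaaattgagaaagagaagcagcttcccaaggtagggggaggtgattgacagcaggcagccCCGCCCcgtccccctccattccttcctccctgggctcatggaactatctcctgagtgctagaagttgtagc
The coordinates are chr8:11312777-11313076 (minus strand) for Col4a1, chr8:11312555-11312854 (plus strand) for Col4a2, chr1:82586800-82587099 (minus strand) for Col4a4, chrX:141475169-141475468 (plus strand) for Col4a5 and chrX:141474027-141474326 (minus strand) for Col4a6. The windows of Col4a1 and Col4a2 share 78 bases, those of Col4a5 and Col4a6 share 0, and that of Col4a4 runs past the start of Col4a3. Both windows of the first pair held 1 CCAAT box, with 1 GC box in the Col4a1 window and 3 in the Col4a2 window, and 1 of these GC boxes is the same site, seen from both strands. The Col4a4 window held neither motif, the Col4a5 window held 1 of each and the Col4a6 window held 1 GC box. GC content was 74% and 73.7% in the Col4a1 and Col4a2 windows, 63.3% for Col4a4, 52.7% for Col4a5 and 48.3% for Col4a6, against a median of 52.7% over all windows. A TATA box (TATAAA), an AP-1 motif (TGANTCA, where N is any base) and a SMAD motif (CAGACA) were searched on both strands and were in none of the 5 windows.

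Col4a1 and Col4a2 encode the α1 and α2 chains, which form the common network of basement membranes. Col4a1 had 1861, 408 and 273 CPM in IR24h 1, 2 and 3, against 206, 204 and 197 CPM in sham 1, 2 and 3, and Col4a2 had 1386, 255 and 345 CPM in IR24h 1, 2 and 3, against 149, 161 and 147 CPM in sham 1, 2 and 3. In both genes all IR24h libraries were above all sham libraries, and IR24h 1 stood far above the other 5. The log2 fold changes were 2.06 ± 0.70 (adjusted p = 0.0826) and 2.12 ± 0.64 (adjusted p = 0.0606), neither past the threshold. Without IR24h 2 both passed (2.39, adjusted p = 0.0246, and 2.50, adjusted p = 0.00797), where 23.9% of all genes were higher. With IR24h 2 as the only injured library the values were 1.02 and 0.75, given without a test since 1 library shows no spread of the injured group. Per kilobase of gene length, Col4a1 stood at 0.914, 1.09 and 0.539 times Col4a2 in IR24h 1, 2 and 3, against 0.939, 0.860 and 0.916 in sham 1, 2 and 3, so that the groups overlapped. Markers of endothelium, whose basement membrane holds these chains, summed to 98.8 CPM in IR24h 2, to 584 and 610 CPM in the other IR24h libraries and to 429 to 483 CPM in sham. Of 10 such markers, all tested, 1 was higher (Vwf) and 1 lower (Kdr), and their part in the type IV levels was not tested.

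Col4a3, Col4a4 and Col4a5 encode the chains of the mature glomerular basement membrane, whose loss causes Alport syndrome. Col4a3 had 106, 207 and 98.5 CPM in IR24h 1, 2 and 3, against 217, 179 and 147 CPM in sham 1, 2 and 3, with a log2 fold change of −0.40 ± 0.36 (adjusted p = 0.464). Without IR24h 2 it was called, as lower (adjusted p = 0.0187). IR24h 2 lay among the sham libraries and IR24h 1 and 3 below them. Col4a4 had 162, 165 and 124 CPM in IR24h 1, 2 and 3, against 272, 245 and 233 CPM in sham 1, 2 and 3, and its log2 fold change was −0.74 ± 0.25 (adjusted p = 0.0796). Each IR24h library of Col4a4 was below each sham library. Without IR24h 2 the value was −0.82 (adjusted p = 0.0140, where 24.5% of all genes were lower), and with IR24h 2 alone it was −0.58. Col4a5 had 39.9, 44.9 and 31.0 CPM in IR24h 1, 2 and 3, against 53.0, 42.5 and 41.5 CPM in sham 1, 2 and 3, the groups overlapped, and the log2 fold change stood at −0.24 ± 0.25 (adjusted p = 0.537). Per kilobase, Col4a1 stood at 12.4, 2.67 and 2.39 times Col4a4 in IR24h 1, 2 and 3, against 0.819, 0.899 and 0.916 times in sham 1, 2 and 3, so the ratio was higher in each IR24h library than in each sham library. Whether the α1 chain stood above or below the α4 chain in sham depended on the gene length used. With the exon lengths of GENCODE M21, an alternative added after seeing the data, the ratio was 16.4, 3.51 and 3.14 in IR24h 1, 2 and 3, against 1.08, 1.18 and 1.21 in sham 1, 2 and 3. Markers of podocytes, the cells that secrete these chains, had a summed level of 177 to 284 CPM in IR24h and 337 to 408 CPM in sham, over the 8 markers reported here. The largest part of each sum was Podxl, with 61.1, 164 and 78.7 CPM in IR24h 1, 2 and 3, against 215, 225 and 180 CPM in sham 1, 2 and 3. The median log2 fold change of the 8 markers was −0.72, with adjusted p between 0.0693 (Nphs1) and 0.784 (Cdkn1c). Kirrel and Cdkn1c had positive values, 1.17 and 0.18, and the others negative ones. None of the 8 was at 0 in every library. The part of podocytes in the levels of Col4a3, Col4a4 and Col4a5 was not tested.

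Col4a6 encodes the α6 chain, found with α5 in the basement membranes of some tubules, Bowman's capsule and smooth muscle. It held 34, 62 and 56 counts in IR24h 1, 2 and 3, against 0, 3 and 2 counts in sham 1, 2 and 3, or 4.83, 3.17 and 4.89 CPM in IR24h 1, 2 and 3, against 0, 0.144 and 0.108 CPM in sham 1, 2 and 3. Its log2 fold change was 5.499 ± 0.71 (adjusted p = 0.00421), and the ratio of the summed counts per summed library size was 45.4 (95% counting interval 19.0 to 142, exact). It was called under each of the 16 alternatives tried, 1 of which, with IR24h 2 as the lone injured library, takes its spread from sham only, and with IR24h 2 alone the value was 5.09. Since its sham counts were this low, it could pass the filter only through IR24h. The levels of its neighbour Col4a5 overlapped between the groups, and the ratio of Col4a6 to Col4a5 per kilobase was 0.120, 0.070 and 0.156 in IR24h 1, 2 and 3, against 0, 0.003 and 0.003 in sham 1, 2 and 3. Even in IR24h, Col4a6 was thus below its neighbour in level.

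Of the 27 members of other classes, 15 were tested, 6 were higher, 1 was lower and 8 were not called, with a median log2 fold change of 1.92. The multiplexins, type XV and type XVIII, sit in basement membranes, and the C-terminal end of type XVIII is released as endostatin, an inhibitor of vessel growth. Both were higher. Col18a1 (ENSMUSG00000001435; chromosome 10, 77052178 to 77166548, minus strand) had 589.9, 489 and 451 CPM in IR24h 1, 2 and 3, against 125, 134 and 145 CPM in sham 1, 2 and 3. The 3 IR24h libraries lay close together, IR24h 2 included, and the log2 fold change of 1.92 ± 0.25 (adjusted p = 0.00452) was 1.95 without IR24h 2 and 1.88 with it alone. Col18a1 thus had the smallest SE of the 12 higher collagens. It was called without each library in turn (highest adjusted p = 0.0492) but not when scaled by library size alone (adjusted p = 0.0766). Col15a1 (ENSMUSG00000028339; chromosome 4, 47208161 to 47313167, plus strand) had 239, 26.3 and 81.5 CPM in IR24h 1, 2 and 3, against 15.8, 20.8 and 15.6 CPM in sham 1, 2 and 3, with a log2 fold change of 2.73 ± 0.73 (adjusted p = 0.0425). Its IR24h libraries were widely spread, and IR24h 2 was close to sham. The call was lost without any 1 library but IR24h 2 (adjusted p = 0.0728 to 0.151).

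Type VI collagen forms beaded filaments between cells and the fibrils around them. Its classic α1, α2 and α3 chains, which assemble as 1 heterotrimer, were all higher. Col6a1 (ENSMUSG00000001119; chromosome 10, 76708792 to 76726168, minus strand) had 264, 19.2 and 67.2 CPM in IR24h 1, 2 and 3, against 11.4, 14.8 and 11.7 CPM in sham 1, 2 and 3. Col6a2 (ENSMUSG00000020241; chromosome 10, 76595762 to 76623630, minus strand) had 163, 15.0 and 39.2 CPM in IR24h 1, 2 and 3, against 7.77, 7.45 and 5.56 CPM in sham 1, 2 and 3. Col6a3 (ENSMUSG00000048126; chromosome 1, 90765923 to 90843971, minus strand) had 188, 29.1 and 53.6 CPM in IR24h 1, 2 and 3, against 13.3, 13.1 and 8.20 CPM in sham 1, 2 and 3. In all 3 genes IR24h 1 was the highest library, IR24h 3 came next and IR24h 2 was nearest to sham without overlapping it. The log2 fold changes were 3.20 ± 0.86 (adjusted p = 0.0437), 3.38 ± 0.83 (adjusted p = 0.0329) and 2.96 ± 0.69 (adjusted p = 0.0280) for α1, α2 and α3. The call of Col6a1 was lost without any 1 library but IR24h 2 (adjusted p = 0.0686 to 0.151), that of Col6a2 without IR24h 3 or any 1 sham library (0.0531 to 0.131) and that of Col6a3 without any 1 sham library (0.0965 to 0.119). Col6a1 and Col6a2 lie 85161 bases apart on chromosome 10, on the same strand.

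Col6a6 (ENSMUSG00000043719; chromosome 9, 105687809 to 105828160, minus strand) encodes a later-found chain of type VI that can take the place of α3 in the trimer. It had 0, 2 and 0 counts in IR24h 1, 2 and 3, against 54, 87 and 98 counts in sham 1, 2 and 3, or 0, 0.102 and 0 CPM in IR24h 1, 2 and 3, against 3.08, 4.18 and 5.29 CPM in sham 1, 2 and 3. It was the only lower collagen, with a log2 fold change of −6.18 ± 0.76 (adjusted p = 0.00368) and a ratio of summed counts per summed library size of 0.0125 (95% counting interval 0.00151 to 0.0457, exact). It was called under each of the 16 alternatives, and as with Col4a6 the low group alone could not have passed it through the filter. Col6a4 and Col6a5, the chains most like it, lie beside it on chromosome 9 and did not pass. Col6a4 had 1, 0 and 0 counts in IR24h 1, 2 and 3, against 9, 3 and 11 counts in sham 1, 2 and 3, a ratio of 0.065 (counting interval 0.00158 to 0.400). Col6a5 had at most 2 counts in any IR24h library and 4 in each sham library.

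Of the collagens that coat or link fibrils, the FACIT class, 1 of the 4 tested was called. This was Col16a1 (ENSMUSG00000040690; chromosome 4, 130047840 to 130099283, plus strand), a chain of fibroblasts and smooth muscle that binds near cell surfaces. It had 116, 54.6 and 39.6 CPM in IR24h 1, 2 and 3, against 9.08, 8.51 and 14.1 CPM in sham 1, 2 and 3, with no overlap, and a log2 fold change of 2.73 ± 0.47 (adjusted p = 0.0107). This call did not hold without sham 1 or 2 (adjusted p = 0.0609 and 0.0640). Col12a1 (ENSMUSG00000032332; chromosome 9, 79598991 to 79718831, minus strand), which coats type I fibrils, had 34.2, 12.2 and 9.26 CPM in IR24h 1, 2 and 3, against 4.23, 5.87 and 6.31 CPM in sham 1, 2 and 3. Its groups did not overlap either, but the log2 fold change of 1.75 ± 0.52 (adjusted p = 0.0592) was not called. It was called without IR24h 2 or 3 (adjusted p = 0.0196 and 0.0470). Col14a1 (ENSMUSG00000022371; chromosome 15, 55307750 to 55520803, plus strand), also a coat of type I fibrils, had 67.3, 6.39 and 19.4 CPM in IR24h 1, 2 and 3, against 32.8, 32.8 and 21.7 CPM in sham 1, 2 and 3. IR24h 1 was above the sham libraries and IR24h 2 and 3 were below them, for a log2 fold change of 0.08 ± 0.73 (adjusted p = 0.947). The order of its libraries was that of Col5a2. Col20a1 was not called (log2 fold change 1.21 ± 0.57, adjusted p = 0.176; called without IR24h 2, adjusted p = 0.0184).

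Among the remaining tested members, none was called. Col8a1 (ENSMUSG00000068196; chromosome 16, 57624258 to 57754737, minus strand), a short chain of vessel walls, had 29.8, 20.3 and 5.59 CPM in IR24h 1, 2 and 3, against 6.34, 2.40 and 4.48 CPM in sham 1, 2 and 3. Its log2 fold change was 2.07 ± 0.63 (adjusted p = 0.0634), but the gene length behind its values was 5108 bases in IR24h and 7909 bases in sham. Without IR24h 3 it was called, as higher (adjusted p = 0.0272). Col7a1, the chain of anchoring fibrils under epithelia, ranged over 3.42 to 16.1 CPM in IR24h and 1.44 to 2.80 CPM in sham, without overlap (log2 fold change 2.09 ± 0.60, adjusted p = 0.0536; called without IR24h 2, adjusted p = 0.00492). Col13a1 and Col23a1, which span the cell membrane, and Col26a1 had at most 6.82 CPM in any library, and their log2 fold changes were 1.57, 0.73 and −0.62. Of these, Col13a1 had 0 counts in IR24h 2 and in sham 2.

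The 15 members that did not pass the filter held at most 67 counts over the 6 libraries, and 11 stayed under 1 CPM in each library. Col17a1, the transmembrane collagen of hemidesmosomes, which tie epithelial cells to their basement membrane, held those 67 counts. They fell as 3, 21 and 43 counts in IR24h 1, 2 and 3, against 0 in each sham library. The 7 urothelium markers summed to 4.97, 2.81 and 20.01 CPM in IR24h 1, 2 and 3. In sham 1, 2 and 3 their sums were 1.14, 1.83 and 4.64 CPM. Both this sum and Col17a1 were highest in IR24h 3. In IR24h 2 the sum was below those of IR24h 1 and sham 3, while Col17a1 was above both, at 1.07 CPM against 0.426 and 0. Among the single markers, Krt5 followed the order of Col17a1, with 0.568, 2.25 and 4.11 CPM in IR24h 1, 2 and 3. It had 0, 0 and 0.324 CPM in sham 1, 2 and 3. Upk1b, Upk3a and Upk3b were lower in IR24h 2 than in IR24h 1, and Upk1a, Upk2 and Krt13 were at 0 counts in both. The highest urothelium marker in IR24h 3, Upk3b at 7.60 CPM, is also a mesothelium marker. The mesothelium markers summed to 17.76, 14.98 and 37.14 CPM in IR24h 1, 2 and 3, and to 0.457 to 1.73 CPM in sham. Most of each IR24h sum was 1 marker, Krt19, at 14.2, 13.3 and 25.7 CPM in IR24h 1, 2 and 3. Msln had 0.568, 1.07 and 3.85 CPM there, and Lrrn4 and Muc16 were at 0 counts in every library. The part of either tissue in the Col17a1 counts was not tested. Set against a floor of 3 counts over the sham group, the summed IR24h counts of Col17a1 gave a bound of 33.4-fold. This bound rests mostly on IR24h 3, with 43 of the 67 counts, and does not hold for each IR24h library. Col19a1 had 0, 0 and 2 counts in IR24h 1, 2 and 3, against 28, 5 and 9 counts in sham 1, 2 and 3, a ratio of 0.0712 (counting interval 0.00834 to 0.274). These intervals and bounds cover counting error only, since PCR reads are not independent molecules, and they hold no spread between libraries. The other members of this kind, among them the chains of type IX and type X of cartilage, had too few counts to compare.

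Summed over each class, the make-up of the collagen counts shifted from type IV to the fibrillar and other classes. All collagens together held 7408, 2379 and 2515 CPM in IR24h 1, 2 and 3, against 1378, 1288 and 1237 CPM in sham 1, 2 and 3. Fibrillar chains took 28.6, 25.8 and 33.8% of the collagen counts in IR24h 1, 2 and 3, against 17.4, 15.7 and 17.5% in sham 1, 2 and 3. Type IV took 48.1, 45.5 and 34.8% in IR24h 1, 2 and 3, against 65.2, 64.5 and 61.9% in sham 1, 2 and 3. In both classes the groups did not overlap, IR24h 2 included. The other classes took 23.4, 28.7 and 31.4% in IR24h 1, 2 and 3, against 17.5, 19.7 and 20.6% in sham 1, 2 and 3, again without overlap. As shares within a library these values do not depend on how libraries are scaled, and a larger share of one class means a smaller share of the others. The summed level of type IV was 876 to 3560 CPM in IR24h and 766 to 898 CPM in sham, so that IR24h 3 lay within the sham range, and a lower share is not a lower level.

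**Figure D3:**
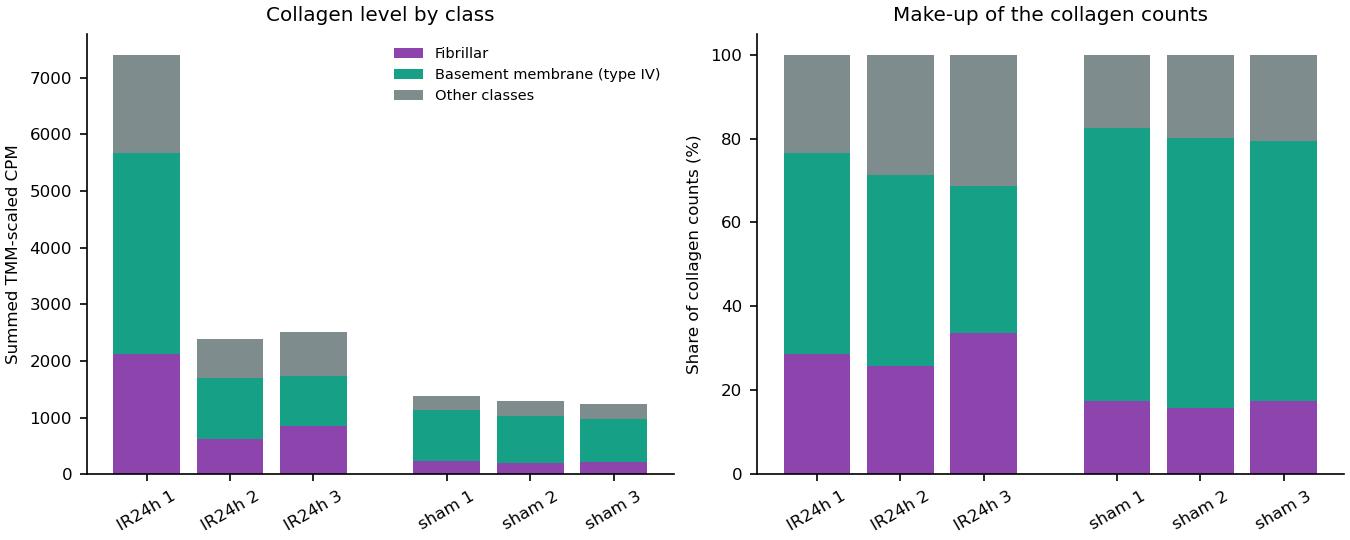
Summed TMM-scaled CPM of the 3 collagen classes in each library (left) and the share of each class among the collagen counts of that library in percent (right), IR24h libraries on the left of each panel and sham libraries on the right. Type IV takes 34.8 to 48.1% of the collagen counts in the IR24h libraries and 61.9 to 65.2% in the sham libraries, and IR24h 1 has the tallest bar at 7408 CPM.

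Compared per kilobase, with the gene length behind the deposited values, the order of the chains also differed. In IR24h the order was led by Col4a2, Col4a1, Col18a1, Col1a1 and Col3a1, at 96.4 ± 91.5, 84.0 ± 87.2, 57.7 ± 8.12, 37.3 ± 27.2 and 31.4 ± 21.5 CPM per kb (SD, n = 3). Neighbours in this order differed by less than the larger of their SDs. In sham it was led by Col4a4, Col4a2, Col4a1, Col4a3 and Col18a1, at 22.9 ± 1.84, 22.2 ± 1.13, 20.1 ± 0.450, 16.6 ± 3.24 and 15.2 ± 1.14 CPM per kb (SD, n = 3). Here Col4a4 and Col4a2 differed by less than either SD, and Col4a3 and Col18a1 by less than the larger one. Col27a1 came next in sham at 5.68 CPM per kb. Col4a4 was at 13.8 CPM per kb in IR24h, below 7 other chains, and Col1a1 was at 37.3 CPM per kb in IR24h and 2.34 CPM per kb in sham. The order of the leading chains changed with the GENCODE M21 exon lengths. Col4a1 then led in IR24h at 114 ± 118 CPM per kb, ahead of Col4a2 at 100.04 ± 94.98 CPM per kb and Col18a1 at 72.7 ± 10.2 CPM per kb (SD, n = 3), again with neighbours closer than the larger SD. It also led in sham at 27.1 ± 0.608 CPM per kb, ahead of Col4a4 at 23.6 ± 1.89, Col4a2 at 23.0 ± 1.17, Col18a1 at 19.1 ± 1.43 and Col4a3 at 18.1 ± 3.54 CPM per kb (SD, n = 3). Col4a4 was then below 9 other chains in IR24h.

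Ratios between chains of 1 trimer or 1 type, taken within a library, are free of the library scaling. Per kilobase, Col1a1 stood at 2.19, 3.00 and 3.38 times Col1a2 in IR24h 1, 2 and 3, against 1.21, 1.02 and 0.956 times in sham 1, 2 and 3. With the GENCODE M21 exon lengths the means were 2.31 in IR24h and 0.861 in sham. Col5a1 stood at 2.26, 1.40 and 2.06 times Col5a2 in IR24h 1, 2 and 3, against 0.122, 0.190 and 0.129 times in sham 1, 2 and 3. In both ratios each IR24h library was above each sham library. Within type VI the ratios overlapped, with Col6a1 at 2.39 to 3.20 times Col6a2 in IR24h and 2.73 to 3.93 times in sham, and Col6a3 at 0.712 to 1.20 times Col6a2 in IR24h and 0.911 to 1.09 times in sham. The ratio of Col3a1 to Col1a1 was 0.766 to 1.10 in IR24h and 0.889 to 1.07 in sham, also overlapping.

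**Figure D4:**
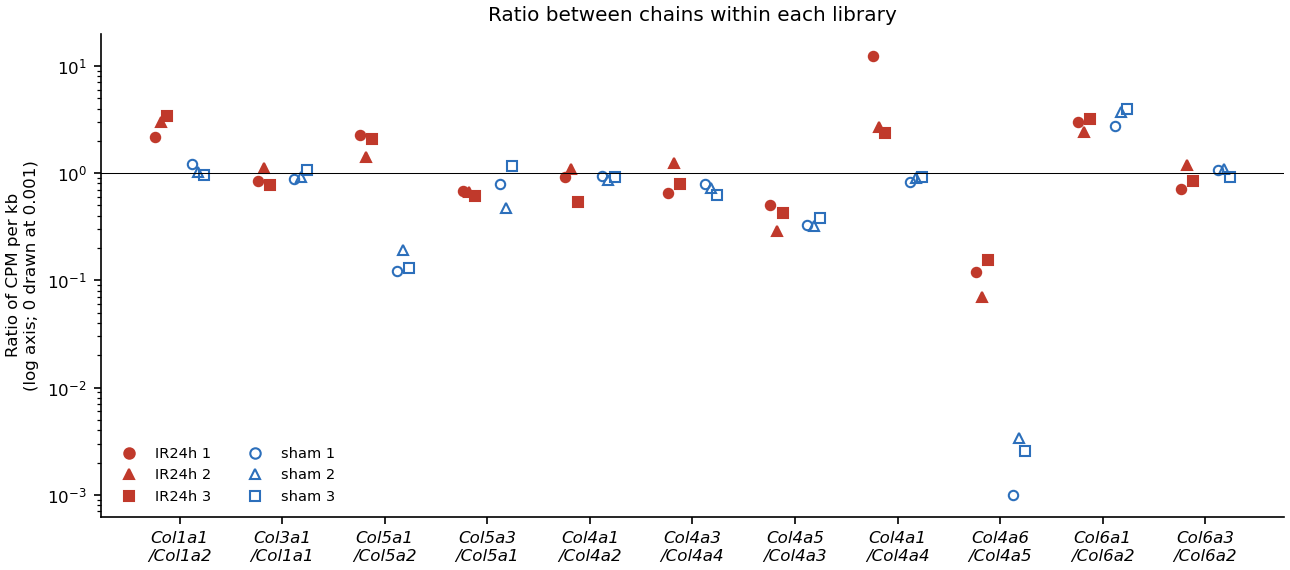
Ratio between the levels of 2 collagen chains per kilobase of gene length (log axis, 0 drawn at 0.001) in each library, IR24h filled and left, sham open and right of each pair; the line is a ratio of 1. Col1a1 to Col1a2, Col5a1 to Col5a2, Col4a1 to Col4a4 and Col4a6 to Col4a5 separate the groups, while ratios such as Col3a1 to Col1a1 and Col6a1 to Col6a2 overlap.

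Within the injured group, the higher collagens differed between libraries. Of the 12 higher collagens, 11 were highest in IR24h 1 (44.5% of all higher genes were), Col4a6 being the exception, and 10 were lowest in IR24h 2 among the IR24h libraries (58.0% of all higher genes were), Col16a1 and Col18a1 being the exceptions. IR24h 1 was also the library with the highest mitochondrial share, 68.9%, and the lowest scaling factor, 0.547. With IR24h 2 as the only injured library, the log2 fold change of Col1a1 was 2.33 (without it 4.42) and that of Col3a1 was 2.55 (without it 4.19). That of Col16a1 was 2.38 (without it 2.87). Of the higher collagens Col6a1, Col6a2 and Col15a1 differed most by this choice. Col6a1 was at 0.62 (without it 3.70), Col6a2 at 1.13 (without it 3.86) and Col15a1 at 0.61 (without it 3.20). The lower Col6a6 was at −5.26 (without it −8.98). IR24h 1 and 3 had 0 counts of Col6a6, so the value without IR24h 2 gives a direction and no measured size. Without IR24h 2 all 13 were called, where 23.9% of all genes were higher and 24.5% lower. In the fit with IR24h 2 alone only the sham libraries give the spread, and the lone library is assumed to vary like them. Of the 13 collagens 11 passed in that fit, but so did many other genes, 18.8% of all as higher and 19.2% as lower, and this count says nothing of the spread within IR24h. Of 10 markers of fat cells 7 were highest in IR24h 2, with Fabp4, Pparg and Lipe as the exceptions, and so were all 6 muscle markers. Adipoq, Plin1 and Lep, which define fat cells, were at 16, 12.6 and 22.2 CPM in IR24h 2 and at 0 to 0.26 CPM elsewhere, and the 10 fat cell markers summed to 256 CPM in IR24h 2, to 104 and 119 CPM in the other IR24h libraries and to 78.7 to 113 CPM in sham. The 6 muscle markers summed to 19.3 CPM in IR24h 2, 0.79 and 0.85 CPM in the other IR24h libraries and 0 to 0.14 CPM in sham. The part of either tissue in the collagen levels was not tested.

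**Figure D5:**
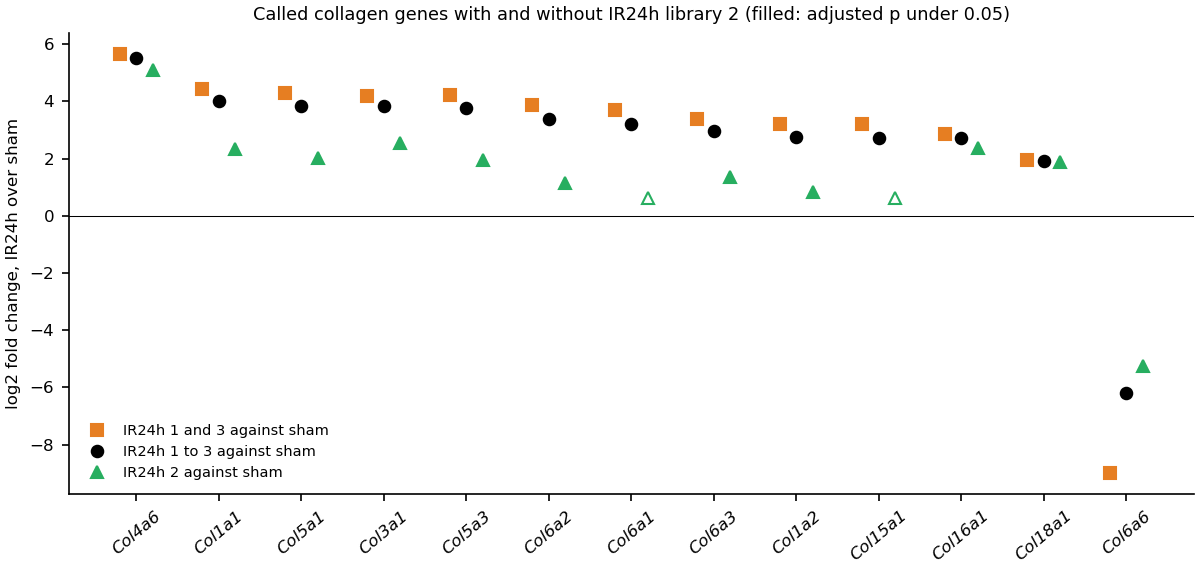
Log2 fold change of IR24h over sham for the 13 called collagen genes with IR24h 1 and 3 (squares), with all 3 IR24h libraries (circles) and with IR24h 2 alone (triangles) against the 3 sham libraries; filled points passed an adjusted p of 0.05, which for triangles rests on the spread of the sham libraries alone. The 3 values lie close for Col18a1 and Col4a6, while Col6a1 and Col15a1 with IR24h 2 alone are near 0.6 and open.

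Of 22 tested genes for modification and folding of the collagen chains, 4 were higher and 0 lower, with a median log2 fold change of 0.53. These are 18.2% of the list, near the 16.3% of all genes called in either direction. All 4 were higher, where 8.65% of all genes were higher. Serpinh1, which encodes HSP47, the chaperone of collagen, had 247, 141 and 90.7 CPM in IR24h 1, 2 and 3, against 57.7, 38.9 and 46.5 CPM in sham 1, 2 and 3, with a log2 fold change of 1.74 ± 0.40 (adjusted p = 0.0271). Fkbp10, a prolyl isomerase needed for lysine hydroxylation of collagen telopeptides, and Creb3l1, a transcription factor for collagen genes in bone, were higher by 2.81 ± 0.67 (adjusted p = 0.0307) and 1.89 ± 0.43 (adjusted p = 0.0261) on the log2 scale. P4ha1, a catalytic subunit of prolyl 4-hydroxylase, had 59.2, 70.5 and 61.3 CPM in IR24h 1, 2 and 3, against 39.2, 39.5 and 36.9 CPM in sham 1, 2 and 3, without overlap and without a call (0.72 ± 0.22, adjusted p = 0.0630). Plod2, the telopeptide lysyl hydroxylase, had 23.9, 54.0 and 6.29 CPM in IR24h 1, 2 and 3, against 28.8, 29.7 and 22.8 CPM in sham 1, 2 and 3 (0.05 ± 0.65, adjusted p = 0.961). Its IR24h libraries lay on both sides of the sham libraries. The calls of Serpinh1, Fkbp10 and Creb3l1 were lost without IR24h 1 or any 1 sham library, and those of Fkbp10 and Creb3l1 also without IR24h 3 (adjusted p = 0.0511 to 0.128).

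Among 8 tested proteases that remove propeptides, 2 were higher and 1 was lower (median log2 fold change 1.08). Bmp1, the C-proteinase of fibrillar procollagens and the activator of lysyl oxidase, had 37.5, 18.3 and 28.3 CPM in IR24h 1, 2 and 3, against 5.71, 6.11 and 6.31 CPM in sham 1, 2 and 3, with a log2 fold change of 2.21 ± 0.33 (adjusted p = 0.00655). Adamts2, the N-proteinase of procollagen I, was higher by 2.62 ± 0.56 (adjusted p = 0.0213). Mep1a, the α subunit of meprin, is an abundant enzyme of the proximal tubule brush border that can also cut procollagen. It averaged 325 ± 216 CPM in IR24h and 1536 ± 196 CPM in sham (SD, n = 3 each), with a log2 fold change of −2.24 ± 0.48 (adjusted p = 0.0221). Of 10 proximal tubule markers, all tested, 6 were lower and 0 higher, and their part in it was not tested. Of 8 crosslinking enzymes, all tested, 4 were higher and 0 lower (median 1.96). The named ones were Loxl4 (3.03 ± 0.51, adjusted p = 0.009996), Lox (2.80 ± 0.68, adjusted p = 0.0314) and Loxl2 (2.52 ± 0.63, adjusted p = 0.0347). Lox, the founding lysyl oxidase, had 15.2, 3.88 and 5.68 CPM in IR24h 1, 2 and 3, against 1.71, 1.30 and 0.485 CPM in sham 1, 2 and 3, and the gene length behind its values differed between the groups. Bmp1 lost its call without sham 2 (adjusted p = 0.0508), and the other 5 genes named here as called lost theirs without any 1 sham library (adjusted p = 0.0584 to 0.135). Mep1a, Lox and Loxl2 also lost theirs without IR24h 1 or 3 (adjusted p = 0.0558 to 0.0741).

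Of 15 tested matrix proteins that bind collagen fibrils, 6 were higher and 1 was lower (median 2.05). Postn, or periostin, averaged 13.4 ± 9.33 CPM in IR24h and 0.401 ± 0.104 CPM in sham (SD, n = 3 each), a log2 fold change of 5.02 ± 0.62 (adjusted p = 0.00364). At this low sham level Postn could pass the filter only through IR24h. Tnc, or tenascin C, averaged 45.7 ± 21.6 CPM in IR24h and 2.96 ± 0.478 CPM in sham (SD, n = 3 each), a log2 fold change of 3.94 ± 0.44 (adjusted p = 0.00248). Fbn1, or fibrillin 1, averaged 52.0 ± 53.9 CPM in IR24h and 6.32 ± 1.56 CPM in sham (SD, n = 3 each), a log2 fold change of 3.03 ± 0.75 (adjusted p = 0.0337). The lower gene was Podn, a small leucine-rich proteoglycan, at 7.20 ± 0.752 CPM in IR24h and 17.8 ± 5.97 CPM in sham (SD, n = 3 each), a log2 fold change of −1.31 ± 0.34 (adjusted p = 0.0374). Of 8 tested receptors and uptake genes, 1 was higher, Itga2, the α2 subunit of a collagen-binding integrin (1.85 ± 0.43, adjusted p = 0.0269), and 0 were lower. The median of this list was 0.80. Postn and Tnc kept their calls without each library in turn (highest adjusted p = 0.0279), while those of Fbn1, Podn and Itga2 were lost without any 1 sham library (adjusted p = 0.0570 to 0.159) and those of Podn and Itga2 also without IR24h 1 or 3 (0.0576 to 0.0853).

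Genes of collagen breakdown moved in both directions, with 4 higher and 2 lower of 14 tested (median 0.78). Timp1, an inhibitor of matrix metalloproteinases, had 30.8, 16 and 48.0 CPM in IR24h 1, 2 and 3, against 0.571, 0.192 and 0 CPM in sham 1, 2 and 3, with a log2 fold change of 6.94 ± 0.91 (adjusted p = 0.00441). Mmp7, the matrilysin of epithelia, and Mmp3, or stromelysin 1, were also higher (adjusted p = 0.0124 and 0.0250). Mmp7 had 119 counts over the IR24h group and 3 over the sham group, a ratio of 59.3 (95% counting interval 19.8 to 292). Mmp3 had 75 and 5 counts, a ratio of 22.4 (95% counting interval 9.19 to 71.0). At these low sham levels Timp1, Mmp7 and Mmp3 could pass the filter only through IR24h. Mmp13, the main interstitial collagenase of mice, was lower at 0.219 ± 0.191 CPM in IR24h and 1.802 ± 0.227 CPM in sham (SD, n = 3 each), a log2 fold change of −2.82 ± 0.67 (adjusted p = 0.0299). At this low IR24h level Mmp13 could pass the filter only through sham. Pepd, or prolidase, which recycles proline from collagen peptides, was lower at 65.7 ± 22.1 CPM in IR24h and 299 ± 25.8 CPM in sham (SD, n = 3 each), a log2 fold change of −2.18 ± 0.33 (adjusted p = 0.00702). Timp1 and Pepd kept their calls without each library in turn (highest adjusted p = 0.0465), Mmp7 lost its call without sham 1 or 2 (0.0614 and 0.0629), and Mmp3 and Mmp13 lost theirs without any 1 sham library (0.0554 to 0.126), Mmp3 also without IR24h 1 or 3 (0.0611 and 0.0512) and Mmp13 without IR24h 3 (0.0631). Over the 6 lists, 21 of the 75 tested genes were higher and 4 lower (28.0% and 5.33%, against 8.65% and 7.62% of all genes). The called share in either direction was 18.2% for folding and 12.5% for receptors and uptake, near or below the 16.3% of all genes. It was 37.5 to 50% in the other 4 lists. Every call in the folding and receptor lists was higher, where 8.65% of all genes were higher.

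Promoter windows of 300 bases were held for 35 of the 44 collagens (38 windows, RefSeq GRCm38.p6), and 23 of these genes were tested. The GC box was in 23 of the 38 windows, 60.5%, against 35.7% of the 32851 windows of all genes. The CCAAT box was in 34.2% of the collagen windows and 37.4% of all windows, and the TATA box in 13.2% and 13.6%. The SMAD motif was in 23.7% of the collagen windows against 21% of all, and the AP-1 motif in 2.63% against 7.81%. These shares describe letters in the windows and were not tested.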

How the data were processed

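Per the labels, an AMBION kit gave the total RNA and a TruSeq RNA guide was used for the libraries. The submitters' processing notes name CASAVA 1.8, TopHat2 2.0.6 and the genome builds mm10 and GRCh38. Read counter, annotation and strand were not given in the sources used here, so overlapping and antisense genes may share reads. Per the file headers, the authors deposited raw counts per gene and FPKM values (per kilobase of gene and per library total). The FPKM values served only to recover gene lengths. Of 22040 genes, 83 had no sham value and were left out, and 21933 matched GENCODE M21 (GRCm38, the assembly of mm10), which gave coordinates.

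Counts were filtered with edgeR 4.0.16 (13609 genes kept), scaled by TMM and tested in R 4.3.3 with its quasi-likelihood test, 2-sided, adjusted by Benjamini-Hochberg over all genes. The common biological coefficient of variation was 0.394. Errors (±) of log2 fold changes are SE from the F statistic. Gene lengths were compared where both groups had at least 5 counts and called different beyond 0.01 on the log2 scale, which leaves out Col4a6, Col6a6 and Col17a1. In sham only, the totals implied by FPKM were 7.91 to 9.74% above the listed counts. Exact permutation tests used log2 of CPM plus 0.5. Alternatives were DESeq2 1.42.0, voom of limma 3.58.1, other scalings and filters, a replicate block and leaving out each library. Tables and figures used Python 3.11.15, matplotlib 3.10.9, SciPy 1.17.1, NumPy 2.4.6 and pandas 2.3.3. The fit was tested on counts simulated with the same dispersion in both groups. That test therefore does not cover the wider spread of the IR24h libraries.

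The members, classes and pathway and marker lists were chosen with earlier results of these data known. A marker gene of the podocyte list is not reported here, and that list's values leave it out. Values in every library are given for collagens that were called or reached a mean of 10 CPM in a group. Of each pathway list, up to 3 called genes at each end of the log2 fold change are named, with Serpinh1, P4ha1, Plod2, Lox and Bmp1 added.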

Additional observations from a re-analysis of the deposited data

How the results depend on the processing

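Of the 13 called collagens, Col4a6, Col3a1 and Col6a6 were called under each of 16 alternatives. Leaving out each library in turn gave 3 to 17 higher and 1 to 3 lower collagens (fibrillar 1 to 5, type IV 1 to 3 and other classes 1 to 9 higher; median log2 fold changes 1.68 to 3.69, 0.25 to 1.16 and 1.35 to 2.27), 246 to 3297 higher and 196 to 3382 lower genes, and 3 to 38 higher and 1 to 7 lower pathway genes. Library size as the only scaling moved the median of all genes to −0.39 and gave 398 higher and 611 lower genes, 3 higher other collagens, 11 higher pathway genes and a type IV median of 0.30, against 0.91. DESeq2 gave 2073 higher and 1695 lower genes, 2 lower collagens, 3 higher type IV chains and 32 higher pathway genes. Voom gave 3 higher other collagens. With no count filter, which adds members of few counts, the median of the other collagens was 0.73 and that of the fibrillar ones 2.09, against 3.26. IR24h 2 alone gave 2690 higher and 2749 lower genes, 5 lower collagens, 3 higher type IV chains, 8 lower pathway genes and medians of 1.56 (fibrillar), 0.48 (type IV) and 0.61 (other); there only sham gives the spread, and IR24h 2 is assumed to vary like it. Counting Col15a1, Col18a1 and Col7a1 with type IV gave 3 higher chains and a median of 2.06. Deviations of same-numbered libraries from their group means correlated at −0.109, 0.12 and 0.233. These values cannot decide whether the numbers pair the libraries, and the labels state no pairing. The replicate block gave 10 higher collagens, 814 higher and 843 lower genes and 2 lower pathway genes. Some genes that were not called changed sign. Leaving out each library gave −1.19 to 0.56 for Col14a1, −0.87 to 0.44 for Col5a2, −0.87 to 0.53 for Plod2 and −0.30 to 2.89 for Col13a1. Library size only, voom and the block gave −0.78, −0.65 and −0.45 for Col14a1, −0.69, −0.26 and −0.19 for Col5a2 and −0.21, −0.37 and −0.39 for Plod2. With IR24h 2 alone Col14a1 and Col5a2 were at −2.17 and −1.15, and Col13a1, Col20a1, Col23a1 and Col4a3 at −7.09, −0.053, −0.38 and 0.21. Col13a1 had 0 counts in IR24h 2, so its value there has no measured size. The cause of these changes was not tested. At these depths the 15 collagens that did not pass the filter could not be tested.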
